A study of Mus musculus with 24 samples.

Results

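The primitive streak is the furrow at the posterior of the gastrulating embryo through which epiblast cells leave to become mesoderm and definitive endoderm. Nodal, BMP, FGF and Wnt signals induce it, and the T-box factors Eomes and T (Brachyury) are among its earliest transcriptional markers. Pluripotent stem cells are known to transcribe some of these genes at low levels, and Wnt pathway activation is known to raise several of them. Here 10 such genes were followed in bulk RNA-seq of mouse embryonic stem cells (ESCs) and of 2 kinds of stem cell converted from them, D-EPSCs and L-EPSCs, which are extended pluripotent and expanded potential stem cells named after their protocols. The genes were T, Mixl1, Eomes, Gsc, Fgf8, Wnt3, Wnt3a, Evx1, Mesp1 and Foxa2, selected by symbol. All 10 were listed in both tables of normalized gene counts, among the 23095 genes listed for J1 and the 25476 listed for the tet-off lines.

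The J1 table held 6 libraries of the wild-type line J1, with 2 replicates each of ESCs, D-EPSCs and L-EPSCs. J1 ESCs were grown in serum with LIF, 3 µM CHIR99021, which activates the Wnt pathway by inhibiting GSK3, and 1 µM PD0325901, an inhibitor of MEK and hence of ERK signalling. D-EPSC medium had LIF, 3 µM CHIR99021, dimethindene maleate and minocycline, and no PD0325901 or XAV939. L-EPSC medium had LIF, 3 µM CHIR99021, 1 µM PD0325901, 5 µM XAV939 (a tankyrase inhibitor that dampens Wnt signalling) and inhibitors of Src, JNK and p38 kinases. The tet-off table held 18 libraries of the established lines ZHBTc4, 2TS22C and NgcKO, whose endogenous Oct4, Sox2 or Nanog is deleted and replaced by a transgene that doxycycline (Dox) shuts off. These lines are written Oct4-, Sox2- and Nanog-cKO, and each was sequenced as ESCs, whose medium is not stated separately, as untreated L-EPSCs and as L-EPSCs with Dox, with 2 replicates each. Each condition rests on 1 line, and nothing states that replicates came from separate cultures, so p-values measure the spread between these libraries only. Reads on genes per library ran from 11612919 to 15069899 for J1 and from 10807631 to 14798984 for the tet-off lines. An exact two-sided permutation test of 2 against 2 libraries cannot go below p = 0.333, so single genes were tested with limma, which shares the spread across genes.

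Most of these genes lay near the lower limit of what this depth can count. A group was called at the floor where each of its libraries had 3 or fewer reads of a gene. Of the 12 groups, Evx1 and Mesp1 were at the floor in 9 each, Foxa2 in 5, Wnt3 in 4, Mixl1 in 3, Gsc and Fgf8 in 2 each, T and Wnt3a in 1 each, and Eomes in 0. Mesp1, a bHLH factor of nascent mesoderm, had at most 7 reads in any library and 0 reads in 11 of 24. Foxa2, a forkhead factor of anterior streak and endoderm, had at most 9 reads, and Evx1, a homeobox factor of posterior streak, at most 12. Means of at least 10 normalized counts were reached by Eomes in all 12 groups, by Wnt3a in 7, by Gsc and Fgf8 in 6 each, by T in 5, by Wnt3 in 4, by Mixl1 in 2, by Evx1 in 1 and by Mesp1 and Foxa2 in 0. A fold against a group at the floor is given only as a lower bound, computed against 3 reads per library. The bound takes the mean of the other group as observed. Neither the counting error of that mean nor the spread between libraries is covered, so a bound resting on few reads is weak.

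**Figure D1:**
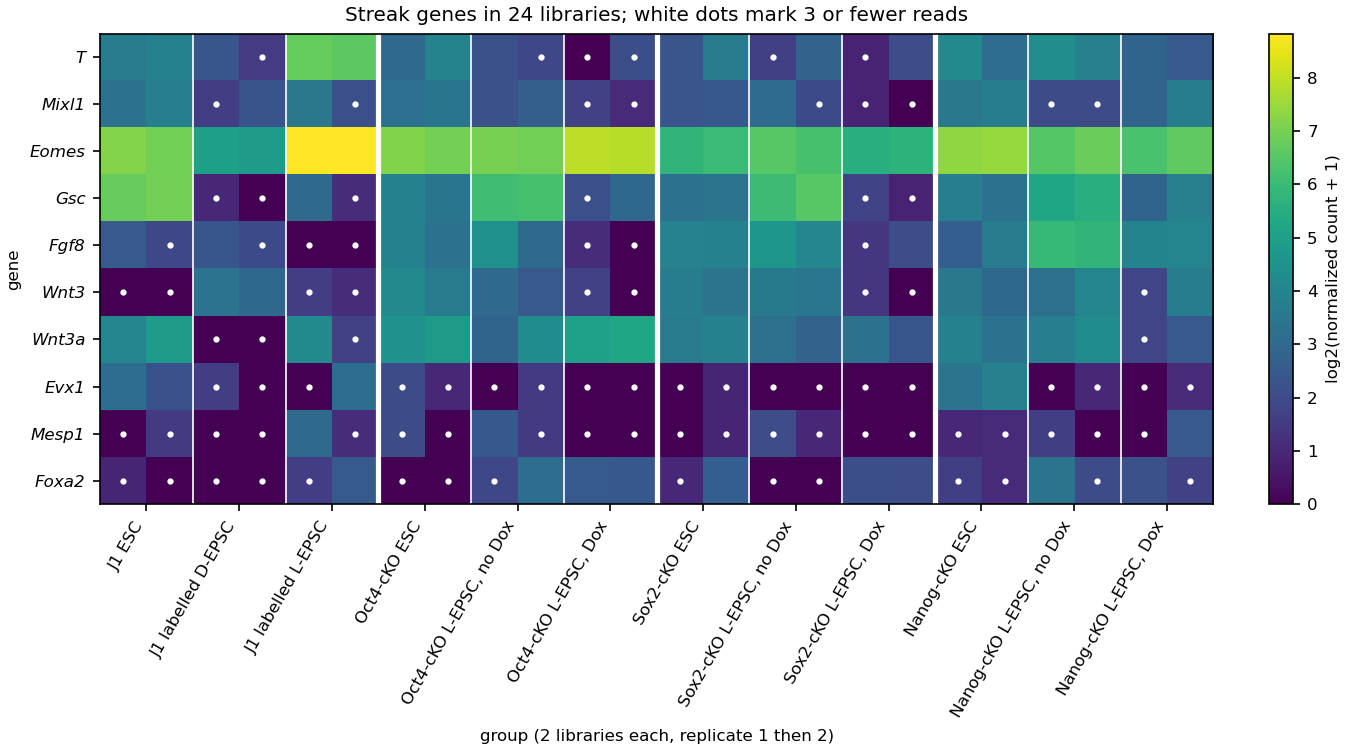
Level of the 10 genes in each library as log2(normalized count + 1), with 2 columns per group (replicate 1, then replicate 2) and a white dot where a library had 3 or fewer reads; the J1 and tet-off libraries were normalized separately. Eomes is the only row without a white dot, while Mesp1 has a dot in 21 of 24 libraries.

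Before the J1 results, a property of those libraries has to be set out. The libraries labelled L-EPSC had more RNA of Wnt targets and ERK feedback genes than those labelled D-EPSC, although the L-EPSC medium has PD0325901 and XAV939 and the D-EPSC medium has neither. Cdx1, a homeobox target of the Wnt pathway, stood at 508 ± 62.2 normalized counts (mean ± SD, n = 2) in the libraries labelled L-EPSC, at 1.49 ± 0.662 in those labelled D-EPSC and at 848 ± 37.9 in ESCs. Egr1, an immediate ERK target, stood at 467 ± 1.43, 135 ± 0.502 and 4.55 ± 0.0834 in the same order. Of 15 Wnt targets listed, 9 were called higher and 1 lower in the libraries labelled L-EPSC than in those labelled D-EPSC, and of 13 ERK feedback genes 6 were higher and 1 lower, against 4.80% and 8.58% of the 21533 genes tested. Compared with ESCs, 8 ERK feedback genes were higher and 1 lower in the J1 libraries labelled D-EPSC and 9 and 0 in those labelled L-EPSC, against 10.8% and 9.98%, and 8.80% and 11.5%, of all genes. In the tet-off lines 2 (Fos and Ier3, named after their values were seen) rose and 10 fell from ESCs to L-EPSCs in each line, against 13.0%, 7.99% and 12.2% higher and 15.4%, 11.6% and 14.7% lower of the 24007 genes tested in the Oct4-, Sox2- and Nanog-cKO lines. Of the 15 Wnt targets, 1 was higher and 10 lower than in ESCs in the libraries labelled D-EPSC. In those labelled L-EPSC 2 were higher and 4 lower. From ESCs to L-EPSCs in the Oct4-, Sox2- and Nanog-cKO lines 0, 1 and 2 were higher and 4, 3 and 7 lower. The shares of all genes beside these counts are those given for the ERK feedback genes. In the libraries labelled L-EPSC, compared with those labelled D-EPSC, 1 of 7 formative epiblast genes tested was higher (Lef1, 368.6 against 149.8 normalized counts). In the same comparison 2 were lower (Otx2, 529 against 926, and Fgf5, 2.69 against 18.6). Of 12 pluripotency genes 2 were higher (Nanog, 4489 against 2794, and Tfcp2l1, 3404 against 1341) and 1 was lower. The genes given with values here were named after their values were seen. Whether the J1 labels were exchanged was not tested, and the groups are called "labelled D-EPSC" and "labelled L-EPSC" throughout.

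The J1 libraries also held RNA of genes that mark other cell types. By the study's methods J1 ESCs were kept on fibroblast feeders or on gelatin, and both EPSC states off feeders for some passages before sequencing. The 12 fibroblast genes summed to 104641 normalized counts in J1 ESCs, 63524 in the libraries labelled D-EPSC and 23690 in those labelled L-EPSC, led by the collagen gene Col1a1 with means of 45290, 19836 and 7499. The 10 macrophage genes summed to 2737, 22994 and 17242, led by the lysozyme gene Lyz2 (1076, 15677 and 12992). The fibroblast genes did not all move alike. In the libraries labelled D-EPSC, S100a4, Dcn and Thy1 were called higher than in ESCs, and Col1a1, Col1a2, Postn, Acta2 and Fbln2 lower. In those labelled L-EPSC, S100a4 was called higher than in ESCs, Dcn and Thy1 were not called, and the other fibroblast genes were lower. No gene of either list was at 0 in a J1 group. In the tet-off groups the fibroblast sum was between 329.7 and 781 with 1 to 3 genes at 0, Lyz2 was at 0 in 7 of 9 groups, and the macrophage sum of 189 to 739 was led by Cd68. The tet-off sums do not include Dcn (fibroblast) and C1qb (macrophage). Eomes is also expressed in trophoblast and Foxa2 in primitive endoderm, and genes of those lists changed in J1 too. Of 12 trophoblast genes, 2 were called higher and 5 lower in the libraries labelled D-EPSC than in ESCs (against 10.8% and 9.98% of all genes) and 3 and 4 in those labelled L-EPSC (against 8.80% and 11.5%), with sums of 2118 normalized counts in ESCs, 1150 in those labelled D-EPSC and 861 in those labelled L-EPSC. The most abundant was Tfap2a in ESCs (634) and Tfap2c in the others (946 and 441), and Cdx2, a defining factor of trophectoderm that is also among the Wnt targets listed, was 26.4 ± 1.77, 1.02 ± 1.44 and 9.74 ± 0.768 in the same order. Of 12 primitive endoderm genes, 5 were higher and 3 lower in the libraries labelled D-EPSC. In those labelled L-EPSC 5 were higher and 1 lower, each against the same shares of all genes. Their sums were 15839 in ESCs, 13329 in those labelled D-EPSC and 7971 in those labelled L-EPSC. The largest part of each sum was Sparc (12998, 8483 and 3908), the 1 gene called lower in those labelled L-EPSC. The sums therefore do not give the direction of the other genes. Gata4, a defining factor of that lineage, was 5.95 ± 3.33 in ESCs, 5.96 ± 2.65 in the libraries labelled D-EPSC and 55.3 ± 0.249 in those labelled L-EPSC. The source of the RNA of these 4 lists and its part in the J1 differences were not tested.

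Each targeted gene was lower with Dox in its own line, which checks the Dox and untreated labels there but not the ESC and L-EPSC labels. Pou5f1, which encodes Oct4, was 6420 and 6316 normalized counts in untreated Oct4-cKO L-EPSCs and 162 and 184 with Dox. Sox2 was 4966 and 4701 in untreated Sox2-cKO L-EPSCs and 47.0 and 53.1 with Dox. Nanog was 9119 and 8847 in untreated Nanog-cKO L-EPSCs and 3166 and 3112 with Dox, so that RNA counted to Nanog remained in that line. All 3 groups of Dox libraries lay below their untreated group without overlap. The fall of Nanog does not tell the lines apart. The log2 fold change of Nanog with Dox was -3.41 in the Oct4-cKO, -3.48 in the Sox2-cKO and -1.52 in the Nanog-cKO line.

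The genes that carry the results below are Eomes, Gsc and T, and their promoters are shown because these members moved in opposite directions between J1 groups. Gene positions are of NCBIM37: T lies on the plus strand at chr17:8627288-8635361, Eomes on the plus strand at chr9:118387330-118395250 and Gsc on the minus strand at chr12:105709419-105711537. RefSeq promoters of GRCm38.p6, from 250 bases before the annotated start to 50 after it, were matched for 8 of the 10 members (10 entries, of which Foxa2 has 3), and Mixl1 and Fgf8 were not matched. The windows below are chr17:8434173-8434472 (plus strand) for T, chr9:118477939-118478238 (plus) for Eomes and chr12:104473187-104473486 (minus) for Gsc, each read 5′ to 3′ along the gene, with matches to the motifs searched in capitals:
T: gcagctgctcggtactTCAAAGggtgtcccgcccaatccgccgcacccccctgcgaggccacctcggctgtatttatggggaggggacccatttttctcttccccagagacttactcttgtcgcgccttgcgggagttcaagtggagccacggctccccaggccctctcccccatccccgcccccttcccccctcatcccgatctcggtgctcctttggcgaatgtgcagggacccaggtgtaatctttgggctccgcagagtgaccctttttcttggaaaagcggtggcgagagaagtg
Eomes: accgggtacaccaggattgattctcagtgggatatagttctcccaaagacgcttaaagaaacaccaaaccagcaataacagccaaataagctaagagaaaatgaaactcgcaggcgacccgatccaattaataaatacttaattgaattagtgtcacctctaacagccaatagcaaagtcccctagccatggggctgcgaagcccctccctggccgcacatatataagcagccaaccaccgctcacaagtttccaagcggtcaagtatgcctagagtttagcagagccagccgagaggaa
Gsc: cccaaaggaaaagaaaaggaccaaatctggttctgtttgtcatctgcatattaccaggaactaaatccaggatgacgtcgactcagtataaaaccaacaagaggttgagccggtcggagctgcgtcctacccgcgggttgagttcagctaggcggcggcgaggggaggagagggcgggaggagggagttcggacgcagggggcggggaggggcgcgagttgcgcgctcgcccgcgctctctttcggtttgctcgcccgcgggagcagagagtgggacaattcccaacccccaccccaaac

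Motifs were searched on both strands as CTTTGA (the core read by TCF/LEF factors of the Wnt pathway), AGGTGTGA (a T-box element), ATGCAAAT (the octamer read by Oct4) and AATNCACA (Foxh1, a partner of Smads in Nodal signalling). The T promoter held 1 TCF/LEF core, on the minus strand, beginning 234 bases before the start. The Eomes and Gsc windows held no match to any of these letters, which says only that they are not in these windows. Among the others, Mesp1 had 2 TCF/LEF cores, 72 and 31 bases before its start, and 1 T-box element, Evx1 had 1 octamer 126 bases before its start, and 1 of the Foxa2 windows had 1 TCF/LEF core. Over all 32851 promoters of the table, 16% held the TCF/LEF core, 1.27% the T-box element, 1.74% the octamer and 3.60% the Foxh1 letters. A match describes the letters in a window and is not evidence of a bound site.

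In J1 the comparison of each EPSC state with ESCs asks which of these genes change on conversion. The 2 T-box genes were lowest in the libraries labelled D-EPSC and highest in those labelled L-EPSC, whereas Gsc, a homeobox factor of the anterior streak and organizer, was high in ESCs alone. Per kilobase of annotated exon, the J1 ESC mean was 92.5 for Gsc, 32.5 for Eomes, 7.44 for Wnt3a and 5.52 for T. As these are bulk samples, fewer cells of a type and less RNA per cell cannot be told apart.

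Eomes had 146 and 124 normalized counts in the 2 J1 ESC libraries, 31.7 and 26.4 in those labelled D-EPSC, and 453 and 446 in those labelled L-EPSC. The 3 groups do not overlap, and the libraries labelled L-EPSC are the highest of all 24. Eomes was lower in the libraries labelled D-EPSC than in ESCs (log2 fold change -2.18 ± 0.15 SE, limma adjusted p = 2.0e-05) and higher in those labelled L-EPSC (1.73 ± 0.15, adjusted p = 6.7e-05). Between the EPSC groups the log2 difference was 3.91 ± 0.15 (adjusted p = 2.0e-06). The difference kept its direction and call when any single library was left out.

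T had 11.7 and 13.8 normalized counts in J1 ESCs, 4.08 and 1.96 in the libraries labelled D-EPSC, and 105 and 96.5 in those labelled L-EPSC. Again the groups do not overlap, and the next highest group mean of T in the series was 16.2. Its level was higher in the libraries labelled L-EPSC than in ESCs by 2.89 ± 0.41 on the log2 scale (limma adjusted p = 0.00081) and than in those labelled D-EPSC by 4.71 ± 0.41 (adjusted p = 1.0e-04). The fall from ESCs to the libraries labelled D-EPSC (-1.82 ± 0.41, adjusted p = 0.0087) rested on few reads, 4 and 2 against 13 and 15. That call was lost without J1 ESC replicate 1 (adjusted p = 0.0765) and without replicate 2 (adjusted p = 0.0949), where the adjusted p over all alternatives ran from 0.000812 to 0.0949, and a fit of these 2 groups alone gave 0.0516.

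Gsc had 110 and 124 normalized counts in J1 ESCs, 1.02 and 0 in the libraries labelled D-EPSC, and 7.20 and 1.15 in those labelled L-EPSC. Every ESC library lies above every EPSC library. In the libraries labelled D-EPSC Gsc was at the floor and at least 39.0-fold lower than in ESCs (limma adjusted p = 0.00023). In those labelled L-EPSC it was lower by a log2 fold change of -4.81 ± 0.71 (adjusted p = 0.0010). Without J1 ESC replicate 1 or without replicate 2 this call was lost (adjusted p = 0.0665 and 0.0718, within a range over all alternatives of 7.19e-14 to 0.0718), at log2 fold changes of -4.90 and -4.72.

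The secreted signals were scarce in J1. Wnt3a, a ligand of the posterior streak, had 15.3 and 25.8 normalized counts in ESCs, 0 in both libraries labelled D-EPSC, and 17.5 and 2.30 in those labelled L-EPSC. It was at least 6.85-fold lower in the libraries labelled D-EPSC than in ESCs (limma adjusted p = 0.0036), and this call was lost when any of the 4 libraries was left out (adjusted p between 0.0911 and 0.12, within a range over all alternatives of 5.17e-05 to 0.12). The 2 libraries labelled L-EPSC differed widely, and the comparison with ESCs did not pass (adjusted p = 0.22), but passed without L-EPSC replicate 1 (log2 fold change -2.66, adjusted p = 0.0327, within a range of 0.0327 to 0.816). Wnt3, the ligand required for the streak to form, was at 0 in both ESC libraries and at 9.19 and 6.85 in those labelled D-EPSC, which is at least 2.94-fold higher (adjusted p = 0.0021). Fgf8, needed for cells to leave the streak, had 5 and 3 reads in ESCs (4.49 and 2.77 normalized counts) and 0 reads in both libraries labelled L-EPSC, at least 1.11-fold lower (adjusted p = 0.012).

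Mixl1, a paired-type homeobox factor, had 8.99 and 12.9 normalized counts in ESCs, 2.04 and 3.92 in the libraries labelled D-EPSC, and 10.3 and 3.45 in those labelled L-EPSC, with no call against ESCs (limma adjusted p = 0.075 and 0.39). In all, 1 member was called higher and 4 lower in the libraries labelled D-EPSC than in ESCs, against 10.8% and 9.98% of the 21533 genes tested. In the libraries labelled L-EPSC, 2 were higher and 2 lower than in ESCs, against 8.80% and 11.5%. Between the EPSC groups, 4 were higher and 2 lower in those labelled L-EPSC, against 4.80% and 8.58%. These 6 calls became 3 with edgeR, with DESeq2 (which gave Fgf8, Wnt3 and Foxa2 no adjusted p) or with the 2 groups fitted alone, and from 2 to 4 with 1 library left out. Of these 6, Wnt3a, Foxa2, Fgf8 and Wnt3 had 1 group at the floor, and Foxa2 rested on 2 and 4 reads against 0. The median log2 fold change of the 10 members was -1.72, 0.29 and 1.80 in these comparisons, where the median of all genes was 0.01, 0 and 0. With each member that had a group at the floor set to its bound (to 0 where no bound above 1 can be given; 6, 4 and 7 of the 10), the medians were -1.29, -0.08 and 0.48.

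**Figure D2:**
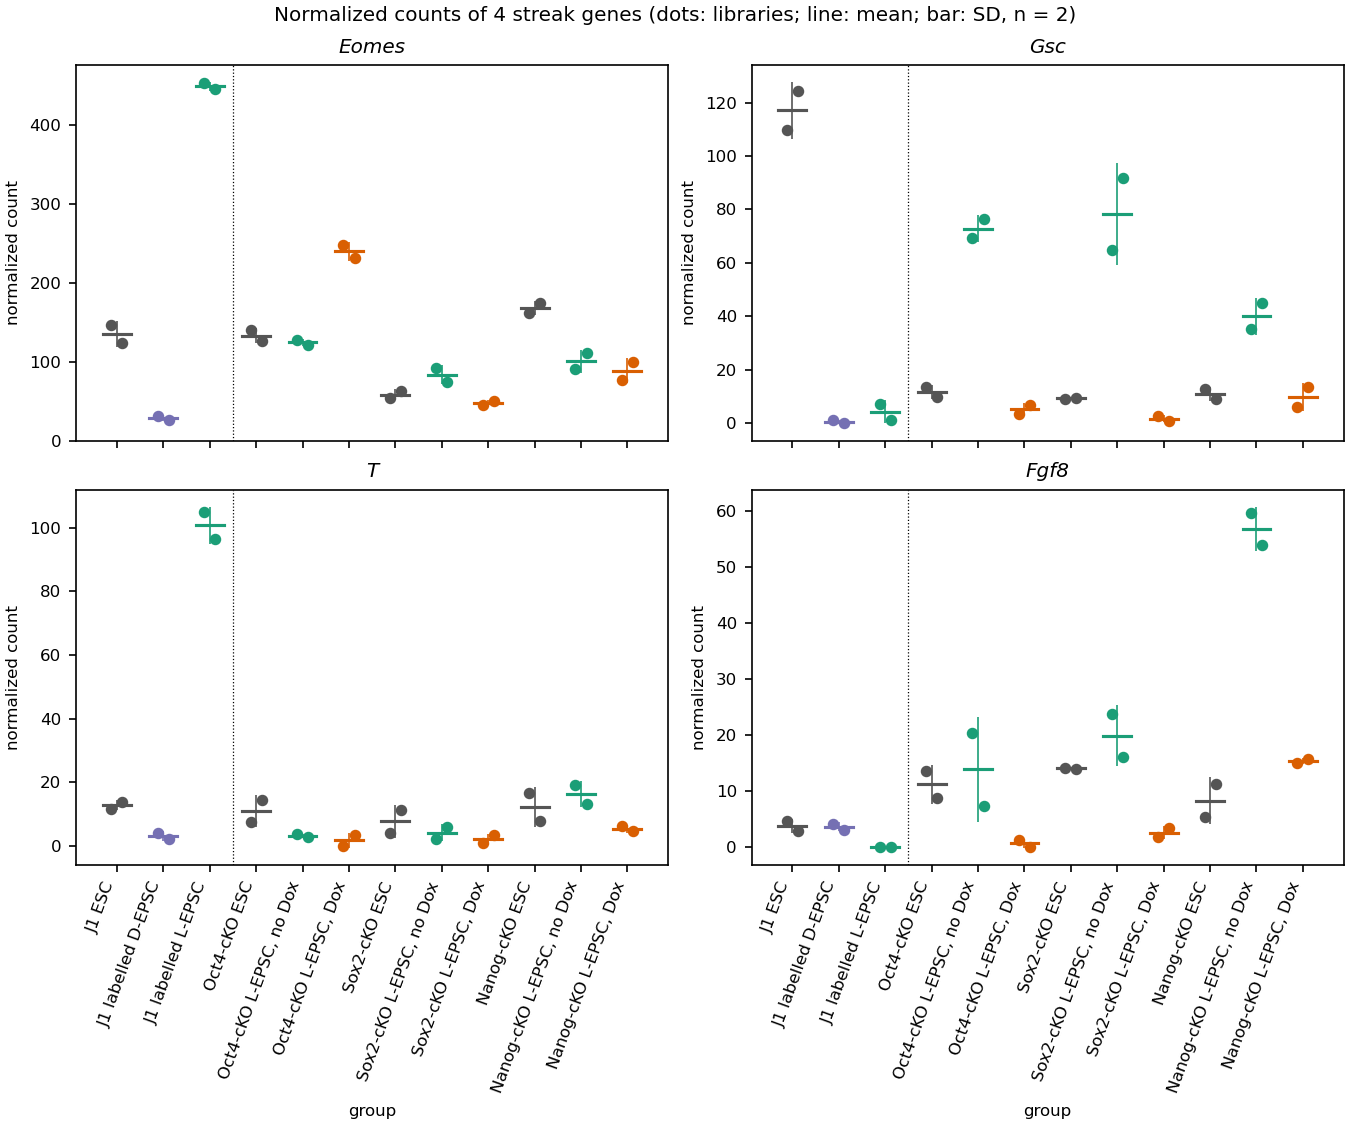
Normalized counts of Eomes, Gsc, T and Fgf8 in the 12 groups; dots are libraries, horizontal lines the means and vertical bars the SD (n = 2), and the dotted line separates the J1 table from the tet-off table, which were normalized separately. Eomes and T peak in the J1 libraries labelled L-EPSC (means 449.6 and 100.7), Gsc peaks in J1 ESCs and in untreated tet-off L-EPSCs, and Fgf8 peaks in untreated Nanog-cKO L-EPSCs (mean 56.8).

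In the tet-off lines, conversion of ESCs to L-EPSCs was measured 3 times, in lines of different genotype. Gsc was the only member called in the same direction in all 3 lines, and there it was higher in L-EPSCs. In Oct4-cKO ESCs it had 13.6 and 9.67 normalized counts, and in their untreated L-EPSCs 69.2 and 76.3 (log2 fold change 2.56 ± 0.47, limma adjusted p = 0.00026). Sox2-cKO ESCs had 9.09 and 9.54, and their L-EPSCs 64.8 and 91.8 (2.92 ± 0.47, adjusted p = 0.00011). Nanog-cKO ESCs had 12.6 and 8.97, and their L-EPSCs 35.1 and 44.9 (1.81 ± 0.47, adjusted p = 0.0049). The groups do not overlap in any line, and the 3 calls were kept when any single library was left out. Fitting the 2 Nanog-cKO groups alone gave an adjusted p of 0.0524 there, within a range of 6.81e-06 to 0.0524. This direction is opposite to that in J1, where Gsc was lower in both EPSC groups than in ESCs, and the J1 ESC level was 117 ± 10.5 against 9.31 to 11.6 in the tet-off ESCs. The tet-off lines have no D-EPSCs to set beside the J1 libraries labelled D-EPSC.

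For Eomes, the change on conversion differed detectably only between the Sox2- and Nanog-cKO lines. Eomes had 140 and 127 normalized counts in Oct4-cKO ESCs and 128 and 121 in their L-EPSCs, with overlapping values and no call (log2 fold change -0.10 ± 0.17, limma adjusted p = 0.71). Sox2-cKO ESCs had 53.5 and 63.3 and their L-EPSCs 91.8 and 74.8, a log2 fold change of 0.50 ± 0.17 that passed the p but not the 0.6 threshold (adjusted p = 0.027). In the Nanog-cKO line it fell from 162 and 175 to 90.5 and 111 (-0.74 ± 0.17, adjusted p = 0.0017). Without untreated L-EPSC replicate 1 that fall was -0.59 and no longer past the threshold, and a fit of the 2 groups alone gave an adjusted p of 0.0575 (range over alternatives 0.000176 to 0.0575). Without Sox2-cKO ESC replicate 2 or untreated L-EPSC replicate 2 the Sox2-cKO difference passed its threshold (0.62 and 0.65, adjusted p = 0.0294 and 0.0211, within a range of 0.0191 to 0.195). The Sox2-cKO change exceeded the Nanog-cKO change by 1.24 ± 0.24 (interaction, adjusted p = 0.00084). Oct4-cKO minus Sox2-cKO gave -0.60 ± 0.24 (interaction adjusted p = 0.093) and Oct4-cKO minus Nanog-cKO gave 0.64 ± 0.24 (0.059), and neither passed. Of the 12 trophoblast genes, 7 were called higher and 0 lower on conversion in the Oct4-cKO line, 1 and 4 in the Sox2-cKO line and 6 and 0 in the Nanog-cKO line, against 13.0% and 15.4%, 7.99% and 11.6%, and 12.2% and 14.7% of all genes. Their sums went from 3146 to 6840, from 7772 to 4235 and from 1557 to 3427 normalized counts, and their part in the Eomes values was not tested.

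Fgf8 had 5.23 and 11.2 normalized counts in Nanog-cKO ESCs and 59.6 and 54.0 in their untreated L-EPSCs, the highest values of Fgf8 in the series (log2 fold change 2.73 ± 0.56, limma adjusted p = 0.00078), a call that a fit of the 2 groups alone did not give (adjusted p = 0.0508, within a range of 3.82e-09 to 0.0508). In the other lines its L-EPSC values were 20.4 and 7.19 (Oct4-cKO) and 23.8 and 15.96 (Sox2-cKO), with no call against ESCs (adjusted p = 0.91 and 0.60). The Nanog-cKO change was larger than that of the Oct4-cKO line (interaction -2.57 ± 0.80 for Oct4-cKO minus Nanog-cKO, adjusted p = 0.025) and of the Sox2-cKO line (-2.28 ± 0.80, adjusted p = 0.047). With a pseudocount of 0.1 neither difference passed (adjusted p = 0.173 and 0.236, the highest values over the settings, against lowest values of 0.0025 and 0.00332).

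The remaining members were low. T had 7.32 and 14.5 normalized counts in Oct4-cKO ESCs and 3.55 and 2.69 in L-EPSCs, with no call in any line (limma adjusted p = 0.13, 0.49 and 0.73 for Oct4-, Sox2- and Nanog-cKO). Wnt3a was between 8.97 and 27.1 in the ESCs and between 5.99 and 18.4 in the untreated L-EPSCs. It was not called in any line, except without Oct4-cKO untreated L-EPSC replicate 2 (log2 fold change -1.78, adjusted p = 0.0193, within a range of 0.0193 to 0.644). Evx1 had 9.41 and 13.4 in Nanog-cKO ESCs and 0 and 1.02 in their L-EPSCs, at least 3.66-fold lower (adjusted p = 0.00032), and DESeq2 gave an adjusted p of 0.100 (range over alternatives 0.000243 to 0.1). Mixl1 was at least 3.64-fold lower in the same comparison, with 10.5 and 12.3 against 3.19 and 3.06 (adjusted p = 0.029), a call that was lost when any 1 of the 4 libraries was left out (adjusted p between 0.054 and 0.091, within a range of 0.0292 to 0.178). Foxa2 had 0 reads in Oct4-cKO ESCs and 3 and 9 in their L-EPSCs, at least 1.78-fold higher (adjusted p = 0.0034), whereas in the Sox2-cKO line it had 1 and 6 reads in ESCs and 0 in L-EPSCs (adjusted p = 0.032), where the reads allow no bound above 1.

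Counted over the members, 2 were called higher and 0 lower in the Oct4-cKO line, against 13.0% and 15.4% of the 24007 genes tested. In the Sox2-cKO line 1 was higher and 1 lower, against 7.99% and 11.6%. In the Nanog-cKO line 2 were higher and 3 lower, against 12.2% and 14.7%. With the 2 groups fitted alone 1, 1 and 2 members were called in these lines, and with 1 library left out 2, from 1 to 2 and from 3 to 5. The median log2 fold change over the 10 was -0.43, 0.06 and 0.42 as fitted and -0.05, 0 and 0.42 with members at the floor set to their bounds, and the median of all genes was 0 in each. In the interaction tests of conversion, 1 member (Foxa2) differed between the Oct4- and Sox2-cKO lines, against 20.2% of genes, 2 (Fgf8 and Evx1) between the Oct4- and Nanog-cKO lines, against 25.8%, and 4 (Eomes, Fgf8, Evx1 and Foxa2) between the Sox2- and Nanog-cKO lines, against 25.5%. Evx1 passed neither with edgeR nor with a pseudocount of 0.1. Primitive endoderm genes, a lineage that also expresses Foxa2, were counted beside these values. Of 12 listed, 5 were called higher and 1 lower in Oct4-cKO L-EPSCs, 4 and 4 in Sox2-cKO and 5 and 3 in Nanog-cKO, against the shares of all genes called in the 3 lines given above, with sums of 20832, 13461 and 5213 normalized counts. Their part in the Foxa2 values was not tested.

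**Figure D3:**
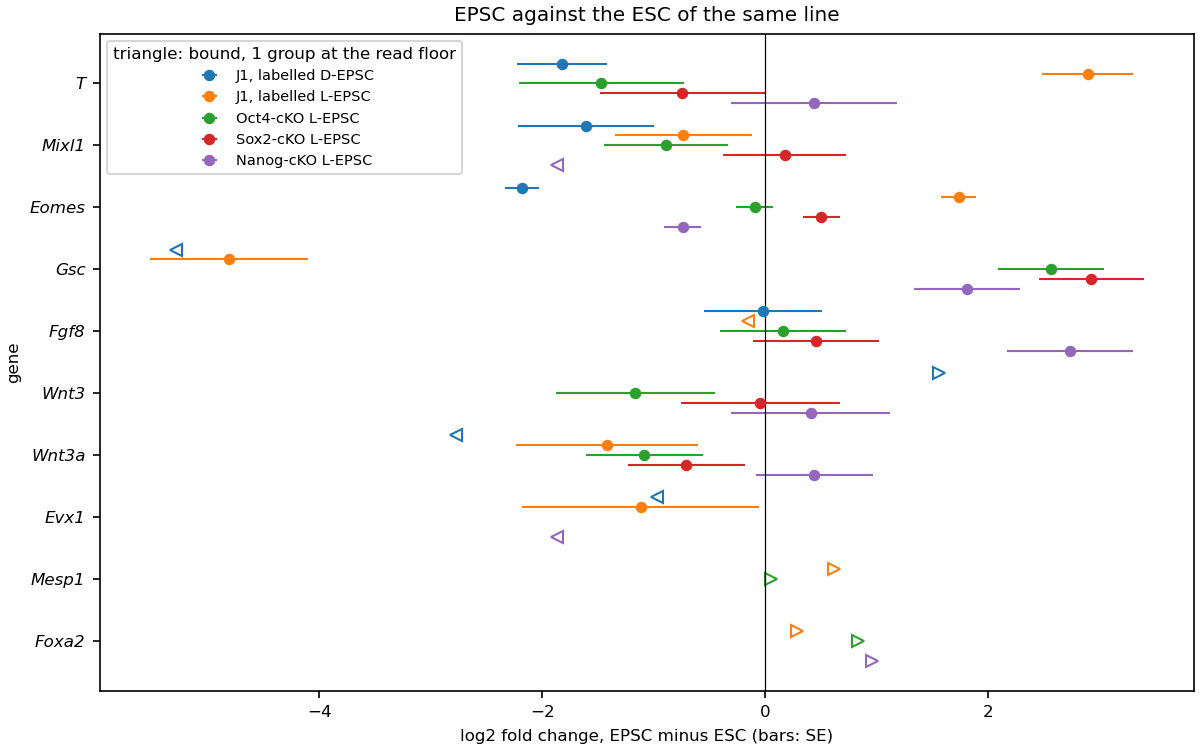
Log2 fold change of each member between EPSCs and ESCs of the same line, for J1 (2 EPSC labels) and the 3 tet-off lines; filled points with SE bars are fitted changes, triangles are lower bounds where 1 group was at the read floor, and nothing is drawn where no bound can be given. Gsc lies left of 0 in J1 (-4.81 in the libraries labelled L-EPSC) and right of 0 in all 3 tet-off lines (1.81 to 2.92).

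The Dox comparisons ask what the members do in L-EPSCs when the Oct4, Sox2 or Nanog transgene is shut off. Gsc and Fgf8 fell in all 3 lines. Eomes differed between the lines in its response, with higher values under Dox in the Oct4-cKO line and lower values in the Sox2-cKO line. Each Dox group shares its untreated group with the conversion comparison of the same line, so the rise of Gsc there and its fall here are not independent of each other.

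Gsc went from 69.2 and 76.3 normalized counts to 3.46 and 6.66 with Dox in the Oct4-cKO line (log2 fold change -3.66 ± 0.47, limma adjusted p = 6.5e-06). In the Sox2-cKO line it went from 64.8 and 91.8 to 2.48 and 0.818, which is at the floor and at least 31.8-fold lower (adjusted p = 2.4e-07). In the Nanog-cKO line it went from 35.1 and 44.9 to 6.15 and 13.5 (-2.0 ± 0.47, adjusted p = 0.0047). The groups do not overlap in any line, and the Dox values lie below the ESC values of the same line in the Oct4- and Sox2-cKO lines and overlap them in the Nanog-cKO line. The Nanog-cKO call was lost without Dox replicate 1 (log2 fold change -1.49, adjusted p = 0.0588) and in a fit of those 2 groups alone (adjusted p = 0.165), within a range of 2.8e-06 to 0.165. The Sox2-cKO change differed from the Nanog-cKO change (interaction -2.96 ± 0.67, adjusted p = 0.0026), a value that rests on a group at the floor, and the Oct4-cKO change did not differ detectably from either (adjusted p = 0.20 against Sox2-cKO and 0.070 against Nanog-cKO).

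Fgf8 went from 20.4 and 7.19 normalized counts to 1.15 and 0 in the Oct4-cKO line, at least 4.07-fold lower (limma adjusted p = 0.00019, and 0.0867 in a fit of those 2 groups alone, within a range of 7.3e-06 to 0.0867). In the Sox2-cKO line it went from 23.8 and 15.96 to 1.65 and 3.27 (log2 fold change -2.61 ± 0.56, adjusted p = 0.0013). In the Nanog-cKO line it went from 59.6 and 54.0 to 14.9 and 15.7 (-1.82 ± 0.56, adjusted p = 0.026). The last call was lost when any of the 4 libraries was left out (adjusted p between 0.0841 and 0.112) and with a pseudocount of 0.1 (adjusted p = 0.19, the top of its range from 2.76e-05), although the 2 groups lie far apart. No difference between lines passed for Fgf8 (interaction adjusted p between 0.23 and 0.70).

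Eomes, which is also a trophoblast factor, went from 128 and 121 normalized counts to 249 and 232 in the Oct4-cKO line. This log2 fold change of 0.94 ± 0.17 (limma adjusted p = 0.00019) fell short of the threshold of 1 used for Dox. In the Sox2-cKO line Eomes went from 91.8 and 74.8 to 45.4 and 50.7 (-0.78 ± 0.17, adjusted p = 0.0012), also short of 1. Both changes would be called at the threshold of 0.6 used for the other comparisons, so that the missing calls come from the threshold. In the Nanog-cKO line it went from 90.5 and 111 to 77.3 and 100, with overlap (-0.19 ± 0.17, adjusted p = 0.51). The Oct4-cKO effect exceeded the Sox2-cKO effect by 1.72 ± 0.24 (interaction, adjusted p = 3.8e-05) and the Nanog-cKO effect by 1.13 ± 0.24 (adjusted p = 0.0012). Between the Sox2- and Nanog-cKO lines the difference was -0.59 ± 0.24 (adjusted p = 0.077).

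Most trophoblast genes listed rose with Dox in the Oct4- and the Sox2-cKO line, in which Eomes moved in opposite directions. Of 12 listed, 9 were called higher and 0 lower with Dox in the Oct4-cKO line, 11 and 0 in the Sox2-cKO line, and 1 and 1 in the Nanog-cKO line, against 8.53% higher and 10.8% lower, 7.79% and 7.32%, and 2.80% and 2.59% of all genes. Not called were Cdx2, Plet1 and Hand1 in the Oct4-cKO line and Hand1 in the Sox2-cKO line, named here after their values were seen, and Hand1 had log2 fold changes of -0.47 and -0.77. The summed level of the 12 genes went from 6840 to 35352 normalized counts in the Oct4-cKO line and from 4235 to 17408 in the Sox2-cKO line, and Krt8, a keratin of simple epithelia, was the most abundant in both Dox groups (12180 and 5342). Elf5, a trophoblast stem cell factor, went from 8.48 ± 0.705 to 167 ± 22.8 in the Oct4-cKO line and from 4.61 ± 1.94 to 49.3 ± 1.47 in the Sox2-cKO line. No trophoblast gene listed was at 0 in these groups. The part of trophoblast gene expression in the Eomes values was not tested.

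**Figure D4:**
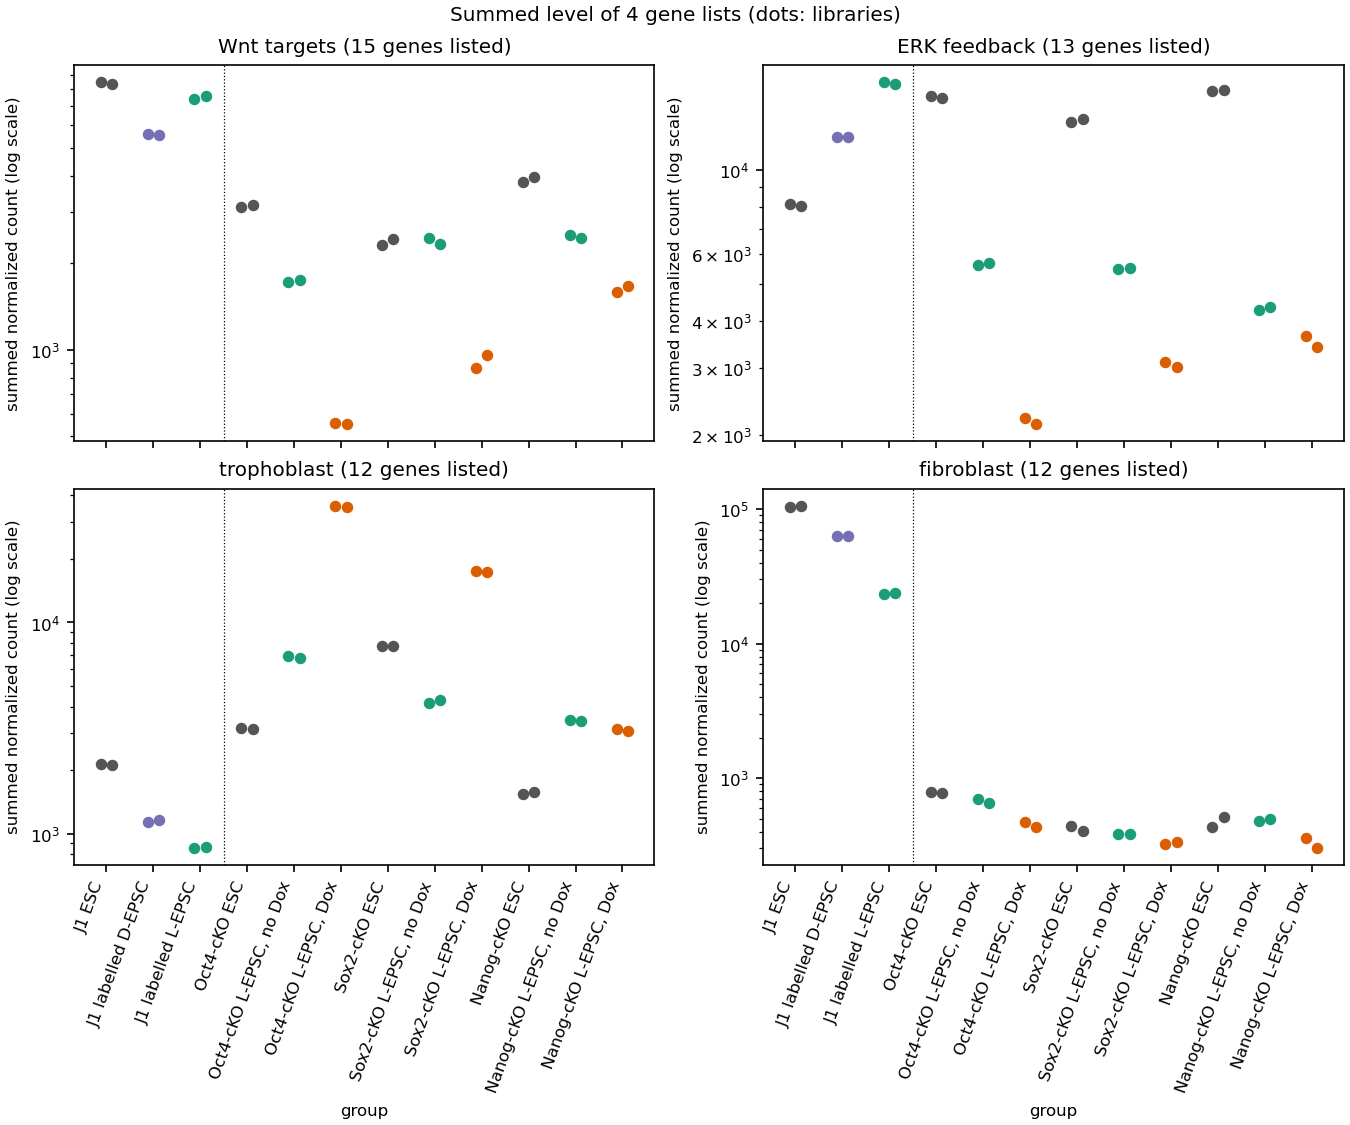
Summed normalized counts of Wnt targets, ERK feedback, trophoblast and fibroblast genes in each library, on log axes that do not start at 0; dots are libraries (grey ESC, purple labelled D-EPSC, green L-EPSC, orange L-EPSC with Dox), the dotted line separates the separately normalized J1 and tet-off libraries, and the tet-off fibroblast sum has 11 of its 12 genes. Trophoblast sums are highest with Dox in the Oct4- and Sox2-cKO lines (means 35352 and 17408), and fibroblast sums run from 23452 to 105800 in the J1 libraries.

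Ordered over the tet-off table, mean Eomes was 240.4 in Oct4-cKO L-EPSCs with Dox, 168.5 in Nanog-cKO ESCs, 133.4 in Oct4-cKO ESCs, 124.5 in untreated Oct4-cKO L-EPSCs, 100.8 and 88.7 in Nanog-cKO L-EPSCs without and with Dox, 83.3 in untreated Sox2-cKO L-EPSCs, 58.4 in Sox2-cKO ESCs and 48.0 in Sox2-cKO L-EPSCs with Dox. The ranges of neighbours overlapped between Oct4-cKO ESCs and their untreated L-EPSCs, between the 2 Nanog-cKO L-EPSC groups, and between Nanog-cKO L-EPSCs with Dox and untreated Sox2-cKO L-EPSCs. Without Eomes, the summed level of the other 9 members had means of 121.4, 127.3 and 151.6 in untreated Oct4-, Sox2- and Nanog-cKO L-EPSCs, and 48.6, 17.3 and 56.5 with Dox.

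Of the Wnt ligands, Wnt3a differed in its response to Dox between the Oct4- and Nanog-cKO lines. Wnt3a had 6.21 and 17.97 normalized counts in untreated Oct4-cKO L-EPSCs and 32.2 and 35.5 with Dox (log2 fold change 1.58 ± 0.52, limma adjusted p = 0.022). It had 12.8 and 18.4 in the untreated Nanog-cKO line and 2.63 and 4.497 with Dox (-1.87 ± 0.52, adjusted p = 0.015), and 8.64 and 5.99 against 9.07 and 4.09 in the Sox2-cKO line, with overlap. The Oct4- and Nanog-cKO effects differed by 3.44 ± 0.74 (interaction, adjusted p = 0.0015), and the differences from the Sox2-cKO line did not pass (adjusted p = 0.10 and 0.11). Both Wnt3a calls depended on single libraries. The Oct4-cKO call was lost without Dox replicate 1 or 2 or untreated replicate 1 (adjusted p = 0.0625, 0.0861 and 0.234, within a range of 0.0028 to 0.234), and the Nanog-cKO call was lost without Dox replicate 1 or untreated replicate 2 (adjusted p = 0.1005 and 0.0996, within a range of 0.00353 to 0.136). Wnt3 was at the floor with Dox in 2 lines, at least 1.71-fold lower in Oct4-cKO (7.10 and 4.49 to 2.30 and 0, adjusted p = 0.043) and at least 4.22-fold lower in Sox2-cKO (10.8 and 9.98 to 1.65 and 0, adjusted p = 0.0044). The Oct4-cKO call of Wnt3 was lost in a fit of the 2 Oct4-cKO groups alone. The Sox2-cKO call was lost without Dox replicate 2 (adjusted p = 0.0786, the top of its range from 0.000901) and in a fit of those 2 groups alone (0.075), and Wnt3 was not called in the Nanog-cKO line (adjusted p = 0.48). No difference between lines passed for Wnt3 (interaction adjusted p between 0.17 and 0.60).

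Among the factors, T had 3.55 and 2.69 normalized counts in untreated Oct4-cKO L-EPSCs and 0 and 3.33 with Dox, 2.16 and 5.99 against 0.825 and 3.27 in the Sox2-cKO line, and 19.2 and 13.2 against 6.15 and 4.497 in the Nanog-cKO line. Only the Nanog-cKO values do not overlap, and that difference was not called (log2 fold change -1.44 ± 0.74, limma adjusted p = 0.20). Mixl1 was at least 2.14-fold lower with Dox in the Sox2-cKO line (7.56 and 2.99 to 0.825 and 0, adjusted p = 0.0054), and in the Nanog-cKO line went from 3.19 and 3.06 to 6.15 and 12.4 without a call (adjusted p = 0.13). Mixl1 effects differed between the Nanog-cKO line and the others (interaction adjusted p = 0.034 against Oct4-cKO and 0.0034 against Sox2-cKO), each resting on groups at the floor. The Oct4-cKO difference did not pass with edgeR (adjusted p = 0.12), DESeq2 (0.101) or a pseudocount of 0.1 (0.156), within a range of 0.034 to 0.156. Foxa2 had 0 reads in untreated Sox2-cKO L-EPSCs and 4 in each Dox library (adjusted p = 0.013, at least 1.05-fold higher). Evx1 was at the floor in all 6 untreated and Dox groups.

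With Dox, 1 member was called higher and 3 lower in the Oct4-cKO line, against 8.53% and 10.8% of genes, 1 and 4 in the Sox2-cKO line, against 7.79% and 7.32%, and 0 and 3 in the Nanog-cKO line, against 2.80% and 2.59%. With the 2 groups fitted alone 1, 3 and 1 members were called, with a filter at a mean of 10 there were 3, 2 and 3, and with 1 library left out from 2 to 3, from 3 to 4 and from 0 to 2. The median log2 fold change of the 10 was -1.0, -1.16 and -0.81 as fitted, beside 0 for all genes in each, and -0.03, -0.76 and -0.81 with members at the floor set to their bounds. In the interaction tests of Dox, 1 member (Eomes) differed between the Oct4- and Sox2-cKO lines, against 24.5% of genes, 3 (Mixl1, Eomes and Wnt3a) between the Oct4- and Nanog-cKO lines, against 33.3%, and 3 (Mixl1, Gsc and Foxa2) between the Sox2- and Nanog-cKO lines, against 29.4%.

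**Figure D5:**
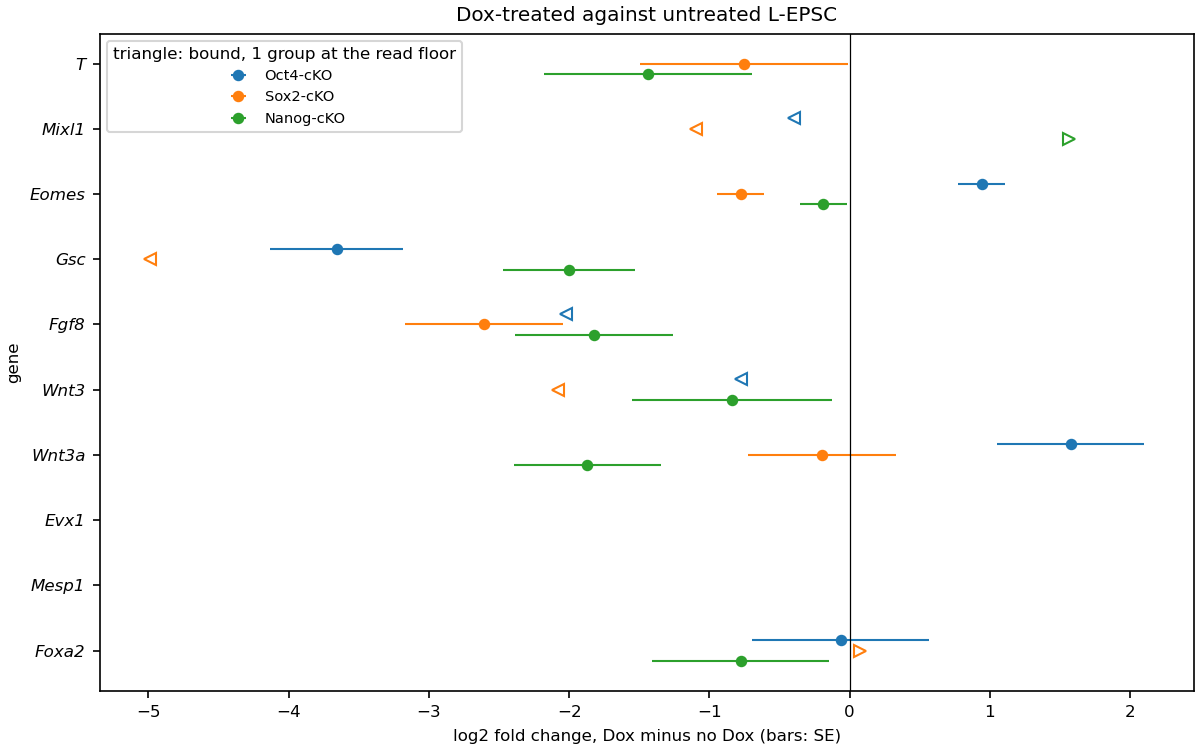
Log2 fold change of each member between Dox-treated and untreated L-EPSCs of the 3 tet-off lines; filled points with SE bars are fitted changes, and triangles are lower bounds where 1 group was at the read floor. All Gsc and Fgf8 marks lie left of 0, and Eomes lies at 0.94 in the Oct4-cKO line and at -0.78 in the Sox2-cKO line.

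Other genes of the streak and gastrula gave the surroundings of these members. Of 24 listed, 22 were tested for J1 and 23 for the tet-off lines, and Cer1 was not analysed here. In the libraries labelled D-EPSC 1 was higher and 7 lower than in ESCs, and in those labelled L-EPSC 6 were higher and 7 lower, against 10.8% and 9.98%, and 8.80% and 11.5%, of all genes. Nkx1-2, a homeobox gene of the late streak, was low in the libraries labelled D-EPSC as T and Eomes were, at 552 ± 1.099 normalized counts in J1 ESCs, 12.5 ± 1.75 in the libraries labelled D-EPSC and 451 ± 27.4 in those labelled L-EPSC. Tlx2, a homeobox gene of the streak, was high in ESCs alone as Gsc was, at 261 ± 10.03 in ESCs and 0 reads in both EPSC groups. Fgf17, of the same FGF subfamily as Fgf8, was at 12.8 ± 4.096 in ESCs, 351 ± 2.697 in the libraries labelled D-EPSC and 190.4 ± 2.67 in those labelled L-EPSC. In the tet-off lines Fgf17 was lower in L-EPSCs than in ESCs of each line, with means of 2.67 against 55.8 in Oct4-cKO, 2.58 against 49.5 in Sox2-cKO and 82.6 against 368 in Nanog-cKO.

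In the tet-off lines, 4 of these genes were higher and 5 lower in Oct4-cKO L-EPSCs than in ESCs, 1 and 5 in Sox2-cKO, and 3 and 5 in Nanog-cKO, against 13.0% and 15.4%, 7.99% and 11.6%, and 12.2% and 14.7% of all genes. With Dox 0 were higher and 8 lower in the Oct4-cKO line, 1 and 11 in the Sox2-cKO line, and 0 and 3 in the Nanog-cKO line, against 8.53% and 10.8%, 7.79% and 7.32%, and 2.80% and 2.59%. Frzb, a secreted Wnt antagonist, rose on conversion from 8.13 ± 3.29 to 62.5 ± 9.56 normalized counts in the Oct4-cKO line and from 4.12 ± 1.54 to 51.2 ± 11.7 in the Sox2-cKO line. Cyp26a1, which degrades retinoic acid, fell with Dox from 34.7 ± 1.72 to 0.409 ± 0.578 in the Sox2-cKO line. Kdr, a receptor of early mesoderm and endothelium, fell with Dox in each line, with means going from 29 to 6.72 in Oct4-cKO, from 26.7 to 2.05 in Sox2-cKO and from 25.04 to 7.69 in Nanog-cKO. Snai1, the factor of epithelial-mesenchymal transition in the streak, fell from 67.04 ± 10.5 to 10.5 ± 1.12 in the Nanog-cKO line.

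Upstream of the streak, 22 genes of Nodal, BMP, FGF and Wnt signalling were listed and tested. On conversion 2 were higher in each tet-off line, near the 13.0%, 7.99% and 12.2% of all genes called higher, and 6, 7 and 6 were lower in the Oct4-, Sox2- and Nanog-cKO lines, against 15.4%, 11.6% and 14.7%. Nodal itself fell from 996 ± 12.5 to 166 ± 1.72 normalized counts in the Oct4-cKO line and from 1295 ± 15.6 to 389 ± 14.5 in the Nanog-cKO line, the same libraries in which Gsc rose. Bmp4 fell from 338 ± 8.53 to 76.8 ± 1.39 in the Sox2-cKO line and from 463 ± 52.2 to 119 ± 16.9 in the Nanog-cKO line. With Dox 1 was higher and 8 lower in both the Oct4- and the Sox2-cKO line, and 0 and 1 in the Nanog-cKO line, where 8.53% and 10.8%, 7.79% and 7.32%, and 2.80% and 2.59% of all genes were higher and lower. In the Oct4-cKO line Tdgf1, the Nodal co-receptor, fell from 8125 ± 119 to 122 ± 0.024, Fgf4, the FGF of the inner cell mass, from 2881 ± 0.9703 to 73.6 ± 11.5, and Lefty2, a Nodal antagonist and target, from 29.9 ± 13 to 0 reads. In the Sox2-cKO line Lefty2 fell from 173 ± 11.5 to 0.409 ± 0.578 and its relative Lefty1 from 72.4 ± 12.1 to 0.409 ± 0.578. Fgf4 was the 1 upstream gene that fell in the Nanog-cKO line, from 5117 ± 179 to 2085 ± 72.6.

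In J1, 4 of the upstream genes were higher and 6 lower in the libraries labelled L-EPSC than in ESCs, and 3 and 3 in those labelled D-EPSC, against 8.80% and 11.5%, and 10.8% and 9.98%, of all genes. Lefty2 had 3973 ± 138 normalized counts in ESCs, 395 ± 5.2 in the libraries labelled D-EPSC and 1069 ± 10.2 in those labelled L-EPSC. Bmp4 was 899.6 ± 17.5 in the libraries labelled L-EPSC against 266 ± 23.5 in those labelled D-EPSC, and Porcn, which lipidates Wnt ligands, 706 ± 25.8 against 214 ± 25.5. Formative epiblast genes were higher in both J1 EPSC groups (7 of 7 tested in the libraries labelled D-EPSC and 5 of 7 in those labelled L-EPSC) and lower on conversion in the tet-off lines (5, 6 and 5 of 7), beside 10.8% and 8.80% of all genes higher in J1 and 15.4%, 11.6% and 14.7% lower in the tet-off lines.

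Likeness of pattern was measured over the 18 tet-off libraries as Pearson's r of log2(normalized count + 1), among genes with a mean of at least 100, for Eomes, Gsc, Fgf8 and Wnt3a, the members whose mean over those libraries was 10 or more. These r values describe libraries that share line and treatment, and no test was made. Closest to Eomes were Birc5 (r = 0.923), Bfar (0.905) and Eif3g (0.896). Closest to Gsc were Sirpa (0.947), Mtfr1 (0.946) and Impa1 (0.944), and closest to Fgf8 were Leprotl1 (0.940), Fcho1 (0.934) and Elovl2 (0.932). For Wnt3a the highest values were lower, with Mlx (0.832), Exosc4 (0.816) and Mob2 (0.804).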

How the data were processed

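Poly(A) RNA-seq of 24 mouse libraries was used. According to the submitters' processing notes, reads were trimmed with Trim Galore 0.6.4, aligned with STAR 2.7.9a to mm9 (NCBIM37) and counted with HTSeq 0.11.2, with no strand setting given, so antisense transcripts cannot be told apart. The deposited values are a signal per gene, the count divided by the library's size factor from DESeq2 (4.1.1, as the notes give it), called normalized counts here; the J1 and tet-off tables were normalized separately and were tested separately.

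The value of 1 read was recovered in each library, and at least 99.9957% of values in every library came out whole within 0.02 reads. Tests were made with limma 3.58.1 (trend) in R 4.3.3 on log2(normalized count + 1), which understates changes of low genes, with all groups of a table in 1 fit, for genes with at least 2 reads in all, with Benjamini-Hochberg adjustment over all genes tested. A gene was called at an adjusted p below 0.05 and a log2 fold change beyond 0.6 (J1 and conversion) or 1 (Dox); interactions were called on the adjusted p alone. On the recovered reads, edgeR 4.0.16 called 4501, 4369 and 3038 genes in the J1 comparisons (D-EPSC with ESC, L-EPSC with ESC, L-EPSC with D-EPSC), 6693, 4642 and 6212 on conversion and 4224, 3378 and 1224 with Dox (Oct4-, Sox2- and Nanog-cKO). The other alternatives were DESeq2 1.42.0, TMM scaling, a pseudocount of 0.1, a filter at a mean of 10, no filter, the 2 groups alone, the other fold threshold, the replicate number as a block, and each library left out. The fits were tested on simulated data.

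The 10 members and all gene lists were chosen with earlier results of these data known, and no list or set test was made. From each list, up to 3 called genes with a mean of at least 10 and the largest change were eligible to be named in a comparison, with their values in the other groups. Python 3.11.15, pandas 2.3.3, NumPy 2.4.6 and matplotlib 3.10.9 were used for tables and figures.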

Additional observations from a re-analysis of the deposited data

Results flagged for a closer look

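Differences between lines in the effect of Dox passed the interaction test (limma, Benjamini-Hochberg adjusted over all genes) for 5 members, with 1, 3 and 3 of 10 passing between the Oct4- and Sox2-, the Oct4- and Nanog-, and the Sox2- and Nanog-cKO lines, against 24.5%, 33.3% and 29.4% of all genes; these shares are near or below those of all genes. For Eomes the log2 effect of Dox in the Oct4-cKO line exceeded that in the Sox2-cKO line by 1.72 (adjusted p = 3.8e-05) and that in the Nanog-cKO line by 1.13 (adjusted p = 0.0012). For Wnt3a the Oct4-cKO effect exceeded the Nanog-cKO effect by 3.44 (adjusted p = 0.0015). For Mixl1 the Oct4-cKO effect minus the Nanog-cKO effect was -2.27 (adjusted p = 0.034, and 0.12 with edgeR, 0.101 with DESeq2 and 0.156 with a pseudocount of 0.1, within a range of 0.034 to 0.156) and the Sox2-cKO effect minus the Nanog-cKO effect was -3.36 (adjusted p = 0.0034). For the latter pair of lines the difference was -2.96 for Gsc (adjusted p = 0.0026) and 2.88 for Foxa2 (adjusted p = 0.022).

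Differences between lines in the effect of conversion passed for 4 members, with 1, 2 and 4 of 10 in the same order of lines, against 20.2%, 25.8% and 25.5% of all genes. Between the Sox2- and Nanog-cKO lines they were 1.24 for Eomes (adjusted p = 0.00084), -2.28 for Fgf8 (adjusted p = 0.047), 2.66 for Evx1 (adjusted p = 0.025) and -3.18 for Foxa2 (adjusted p = 0.014). Oct4-cKO minus Nanog-cKO gave -2.57 for Fgf8 (adjusted p = 0.025) and 2.34 for Evx1 (adjusted p = 0.048), and Oct4-cKO minus Sox2-cKO gave 4.35 for Foxa2 (adjusted p = 0.0020). With a pseudocount of 0.1 both Fgf8 differences were lost (adjusted p = 0.236 against Sox2-cKO and 0.173 against Oct4-cKO, from lowest values of 0.00332 and 0.0025), as were both Evx1 differences (adjusted p = 0.352 and 0.432), which were also lost with edgeR (0.99985 and 0.482, from lowest values of 0.0202 and 0.039), and DESeq2 gave the Oct4- against Sox2-cKO difference of Foxa2 no adjusted p. The Foxa2, Evx1, Mixl1 and Gsc values involve groups at the floor of 3 reads and are not bounds.

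Some members moved in opposite directions in J1 and in a tet-off line with every library of 1 group beyond every library of the other. Gsc was lower than in ESCs by a difference of -116.6 normalized counts in the J1 libraries labelled D-EPSC and -112.9 in those labelled L-EPSC, and higher in L-EPSCs of all 3 tet-off lines. The tet-off lines have no D-EPSCs, so the J1 libraries labelled D-EPSC have no counterpart there. Eomes differed by 314.6 normalized counts between J1 libraries labelled L-EPSC and ESCs, and Fgf8 by -3.63, each opposite to the Nanog-cKO line. The Fgf8 difference rests on 5 and 3 reads in ESCs against 0 in both libraries labelled L-EPSC, a group at the floor. As the 2 tables were normalized separately, these differences between J1 and the tet-off lines were not tested.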

How the results depend on the processing

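Several counts moved with the settings, and the cause was not tested. With a fold threshold of 1 in place of 0.6, the genes called were 2899 for J1 L-EPSC against ESC, 1836 for J1 L-EPSC against D-EPSC, and 4466, 2990 and 4196 on conversion of the Oct4-, Sox2- and Nanog-cKO lines; with 0.6 in place of 1, Dox gave 5568 in the Sox2-cKO and 2386 in the Nanog-cKO line. With the 2 groups fitted alone, Nanog-cKO Dox gave 479 genes, 37.8% of them higher against 52.0% in the fit of all groups. The members called between J1 L-EPSC and D-EPSC were 3 in place of 6 with edgeR, DESeq2 (no adjusted p for Fgf8, Wnt3 and Foxa2) or the 2 groups alone. On conversion they were 1 in Oct4-cKO (mean of at least 10, 2 groups alone), 1 in Sox2-cKO (edgeR, DESeq2, mean of at least 10, 2 groups alone), and in Nanog-cKO 3 (DESeq2, mean of at least 10) or 2 (2 groups alone). With Dox they were 1 in Oct4-cKO and 1 in Nanog-cKO (2 groups alone), and in Sox2-cKO 3 (DESeq2, 2 groups alone) or 2 (mean of at least 10, which tests fewer genes). With a pseudocount of 0.1 the interactions passed for 2 members (Dox, Oct4- against Sox2-cKO), 0 (conversion, Oct4- against Nanog-cKO) and 2 (conversion, Sox2- against Nanog-cKO), and with DESeq2 for 0 (conversion, Oct4- against Sox2-cKO, where Foxa2 had no adjusted p). Of the counts under these settings, 29 moved as listed here and 157 stayed within 1.5 times, and of the member folds 376 kept direction and call, 15 lost the call and 2 gained it.

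Leaving out 1 library at a time, with the lone library of a group assumed to vary like the others, the members called ranged from 3 to 4 for J1 D-EPSC and from 3 to 5 for J1 L-EPSC against ESC, from 2 to 4 between the EPSC groups, from 1 to 2 and from 3 to 5 on conversion of Sox2- and Nanog-cKO, and with Dox from 2 to 3 (Oct4-cKO), from 3 to 4 (Sox2-cKO) and from 0 to 2 (Nanog-cKO). The genes called between J1 L-EPSC and D-EPSC ranged from 1913 to 2104, against 2881 with all libraries. Uncalled folds changed sign for Fgf8 on Oct4-cKO conversion (log2 -0.54 to 0.85; -0.14 without ESC replicate 2), Wnt3 on Sox2-cKO conversion (-0.20 to 0.11; 0.0058 without untreated L-EPSC replicate 2), T on Nanog-cKO conversion (-0.064 to 0.94) and Wnt3 with Nanog-cKO Dox (-1.78 to 0.10).

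Replicate numbers did not pair the samples: deviations of same-numbered samples correlated between -0.0076 and 0.026 in J1 (3 pairs) and between -0.062 and 0.063 in the tet-off lines (36 pairs). With the replicate block, 4349, 4257 and 2789 genes were called in J1, 6816, 4726 and 6436 on conversion and 4660, 3594 and 1285 with Dox, and 4 in place of 6 members between the J1 EPSC groups. The Fgf8 conversion difference of Sox2- minus Nanog-cKO had an adjusted p of 0.0509 with the block. TMM scaling moved no median of all genes by over 0.1. Except for J1 D-EPSC against ESC, that median was 0 under both scalings, so it says little about the effect of scaling. At 10807631 to 15069899 reads per library, differences in Mesp1, Evx1 and Foxa2 were mostly not detectable.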
